A study of Mus musculus with 4 samples.

Results

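The 10 genes described here make or recycle glutathione or belong to the antioxidant programme of the transcription factor NRF2: Gss, Gclc, Gclm, Gsr, Gpx1, Gpx4, Srxn1, Txnrd1, Nqo1 and Hmox1. They were chosen by name, as probe sets annotated with a single gene symbol, and 10 of 10 were found, on 11 of the 35512 probe sets of the table, among 19938 named genes. RNA was measured in mouse embryonic fibroblasts of C57BL/6 background, prepared from E13.5 embryos, that lack both BAX and BAK and were transformed with SV40. All groups share these features, so the controls also lack the effectors of mitochondrial apoptosis and carry the SV40 genes, among them large T antigen, which binds p53. The 4 groups were p63-transduced cells with etoposide, p63-transduced cells with mock treatment, GFP-transduced cells with etoposide and GFP-transduced cells with mock treatment, each for 6 h and each on 1 Affymetrix Mouse Gene ST array. The virus was a retrovirus in both lines, and the labels state neither the isoform and species of the p63 nor whether a line is a clone or a pool. Etoposide, which traps topoisomerase II on cut DNA, is given as 10 µg per mL in the treatment protocol and as 10 µg per µL in the sample characteristics.

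Glutathione is a tripeptide that keeps the cell's thiols reduced and that peroxidases use to remove peroxides. NRF2 is held in the cytoplasm by KEAP1 and degraded; oxidants or electrophiles free it, and with a small MAF partner it binds the antioxidant response element (ARE) beside genes for glutathione synthesis, thioredoxin reduction, quinone reduction and haem breakdown. In fibroblasts this programme is known as a response to oxidative and electrophilic stress.

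Signals are given as deposited, as log2 values after RMA, and a log2 difference of 1 means 2-fold. With 1 array per group there is no replicate error and no test, and the word called marks a gene whose difference reaches 1 in either direction. Of the 19938 genes, 10698 passed the brightness filter of 5.87 on at least 1 array, and 10 of the 10 redox genes did so, with no reading below 6.85. Trp63 read 9.29 and 8.75 on the arrays labelled p63 (etoposide and mock), against 5.59 and 4.87 on those labelled GFP, so the virus labels hold. Mdm2, a p53 target that damage induces, was higher after etoposide by 2.59 in p63 cells and 2.40 in GFP cells. Mock-treated p63 cells gave the array that stood apart most: 78 genes lay at least 1 from each other array while those were within 0.5 of one another, against 1 to 22 genes for the other arrays, and its median over the genes kept was 7.48 against 7.60 to 7.69. Among the redox genes 0 stood apart in this way, but 5 of 10 had their lowest reading on that array, which was also the lowest for 40.4% of all genes kept. Every value below for etoposide in p63 cells, or for p63 against GFP in mock-treated cells, rests on it; the etoposide differences in GFP cells and the p63 differences in etoposide-treated cells do not. Of 12 fibroblast markers 7 passed the filter, with Vim, Fn1 and Col1a1 above 11 on each array, while Thy1, Pdgfra, Fap, Dcn and Lum stayed below the filter on 4 of 4 arrays.

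Gss carried the clearest response. Gss encodes glutathione synthetase, which adds glycine to gamma-glutamylcysteine in the last step of glutathione synthesis. Its signal was 10.04 in etoposide-treated p63 cells, against 8.49 in p63 cells with mock treatment. In GFP cells it was 9.69 with etoposide, against 8.44 with mock treatment. Both etoposide arrays lay above both mock arrays, and the mock arrays differed by 0.05. The etoposide difference was 1.55 in p63 cells and 1.25 in GFP cells, or 2.92-fold and 2.38-fold, which ranked 183rd and 231st from the top among 10698 genes. Gss was the only one of the 10 called in both lines.

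The first and rate-limiting step, which joins glutamate to cysteine, is made by a holoenzyme of the catalytic subunit Gclc and the modifier subunit Gclm. Gclc read 8.96 after etoposide in p63 cells, against 8.77 with mock treatment, and 8.93 after etoposide in GFP cells, against 8.66 with mock treatment. These 4 readings span 0.30, while those of Gss span 1.59. Gclm read 8.18 after etoposide in p63 cells, against 7.84 with mock treatment, and 8.30 after etoposide in GFP cells, against 8.80 with mock treatment. The Gclm difference was thus 0.34 in p63 cells and -0.50 in GFP cells, in opposite directions, and its reading on the mock-treated GFP array was the highest of the 4. Neither subunit was called in either line.

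The enzymes that use or recycle glutathione stayed close to their mock levels. Gsr encodes glutathione reductase, which returns oxidised glutathione to the reduced form with NADPH. It read 8.87 after etoposide in p63 cells, against 9.24 with mock treatment, and 9.16 after etoposide in GFP cells, against 9.33 with mock treatment, and was below its mock reading in both lines, by -0.36 and -0.17. Gpx1, the abundant cytosolic glutathione peroxidase, read 8.92 after etoposide in p63 cells, against 8.76 with mock treatment, and 8.87 after etoposide in GFP cells, against 9.14 with mock treatment. Gpx4, the peroxidase that reduces lipid hydroperoxides in membranes and restrains ferroptosis, read 10.213 after etoposide in p63 cells, against 10.215 with mock treatment, and 10.47 after etoposide in GFP cells, against 10.65 with mock treatment. Gpx4 was the member with the smallest etoposide difference in p63 cells, -0.0012. Its second probe set gave 0.00 in p63 cells and -0.13 in GFP cells, beside 0.00 and -0.18 for the brighter one, so the probe sets differ by at most 0.05.

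The NRF2 targets outside glutathione metabolism ranged more widely. Hmox1 encodes haem oxygenase 1, which degrades haem to biliverdin, carbon monoxide and iron. It read 9.42 after etoposide in p63 cells, against 8.39 with mock treatment, and 9.41 after etoposide in GFP cells, against 8.43 with mock treatment. The lines coincided within 0.05 under each treatment, and the etoposide difference was 1.04 in p63 cells and 0.98 in GFP cells (2.05-fold and 1.97-fold), just above and just below the threshold. Txnrd1 encodes the cytosolic thioredoxin reductase, a selenoprotein that keeps thioredoxin reduced. It read 10.33 after etoposide in p63 cells, against 9.34 with mock treatment, and 10.50 after etoposide in GFP cells, against 9.82 with mock treatment. Both etoposide readings lay above both mock readings, by 0.99 within p63 cells and 0.68 within GFP cells (1.99-fold and 1.61-fold). Nqo1 encodes a quinone reductase that is widely used as a readout of NRF2. It read 7.83 after etoposide in p63 cells, against 7.04 with mock treatment, and 7.41 after etoposide in GFP cells, against 6.85 with mock treatment, differences of 0.79 and 0.56. Srxn1 encodes sulfiredoxin, which reactivates overoxidised peroxiredoxins. It read 7.59 after etoposide in p63 cells, against 7.44 with mock treatment, and 8.05 after etoposide in GFP cells, against 7.67 with mock treatment, so its etoposide reading in p63 cells lay below its mock reading in GFP cells. Its difference in p63 cells, 0.15, was -0.04 with arrays centred on the genes kept, as that of Gclc was -0.01.

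**Figure D1:**
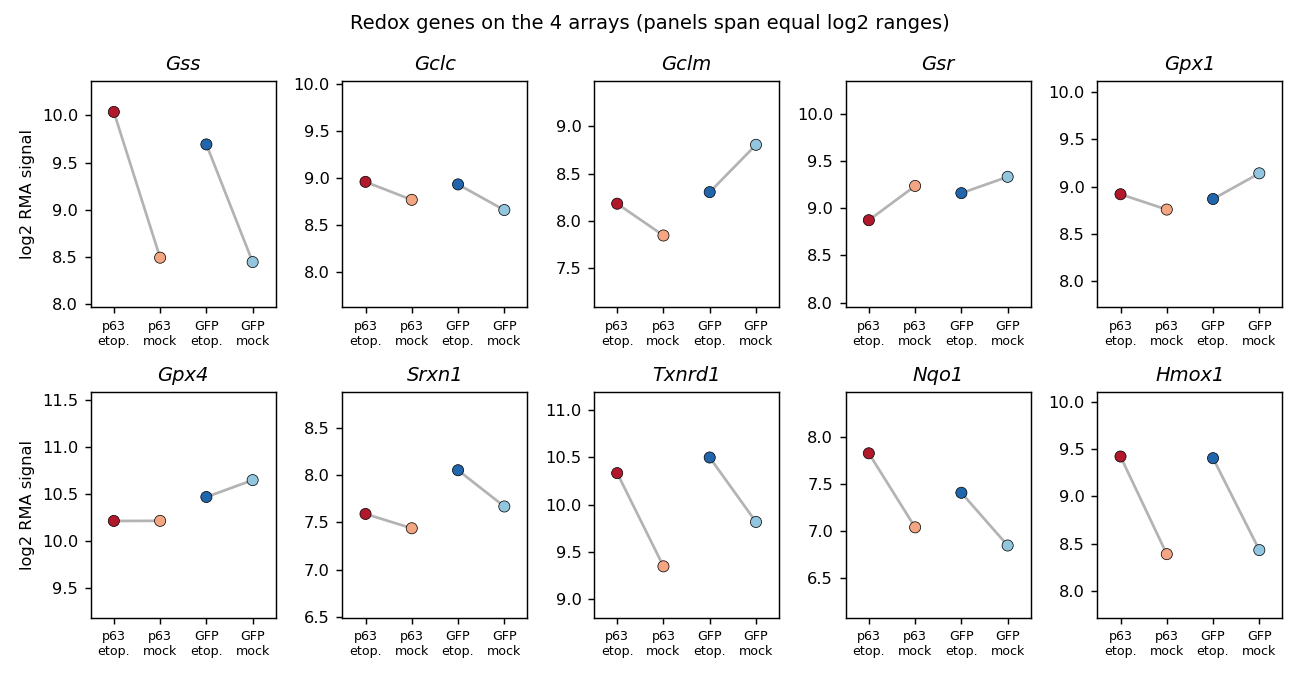
Log2 RMA signal of the 10 redox genes (vertical axis, a span of the same size in each panel) on the 4 arrays, from left to right p63 cells with etoposide and mock, then GFP cells with etoposide and mock; each point is 1 array and grey lines join the arrays of a line. Gss, Txnrd1, Nqo1 and Hmox1 have both etoposide points above both mock points, as does Gclc over a span of 0.30, while Gclm and, less steeply, Gpx1 slope in opposite directions in the lines.

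Counted over the 10 genes, 2 were called higher after etoposide in p63 cells (Gss and Hmox1), where 6.28% of all genes kept were, and 1 in GFP cells (Gss), where 3.52% were. In both lines together 1 of 10 was called higher, against 2.57% of all genes. None of the 10 was called lower in p63 cells or in GFP cells, where 1.33% and 2.12% of all genes were. At these percentages fewer than 1 of 10 genes is the background, so the calls amount to Gss, with Hmox1 at the threshold. At a 1.5-fold threshold Gss, Hmox1 and Txnrd1 were higher in both lines (6.71% of all genes), Nqo1 joined them in p63 cells, and 0 were lower in either line. At that threshold 16.5% of all genes were higher and 5.5% lower in p63 cells, 9.28% were higher and 9.48% lower in GFP cells, and 2.51% were lower in both. The median etoposide difference of the 10 was 0.26 in p63 cells, where the median of all genes kept was 0.10, and 0.33 in GFP cells, where that of all genes was -0.08. Of the 10, 6 were above 0 in both lines, as were 31.8% of all genes kept. Only Gsr and Gpx4 were below 0 in both, Gpx4 at -0.0012 in p63 cells. These counts depend on the scaling. With arrays centred on the median of the genes kept, Gclc (-0.01), Srxn1 (-0.04) and Gpx1 (-0.03) were also below 0 in p63 cells.

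**Figure D2:**
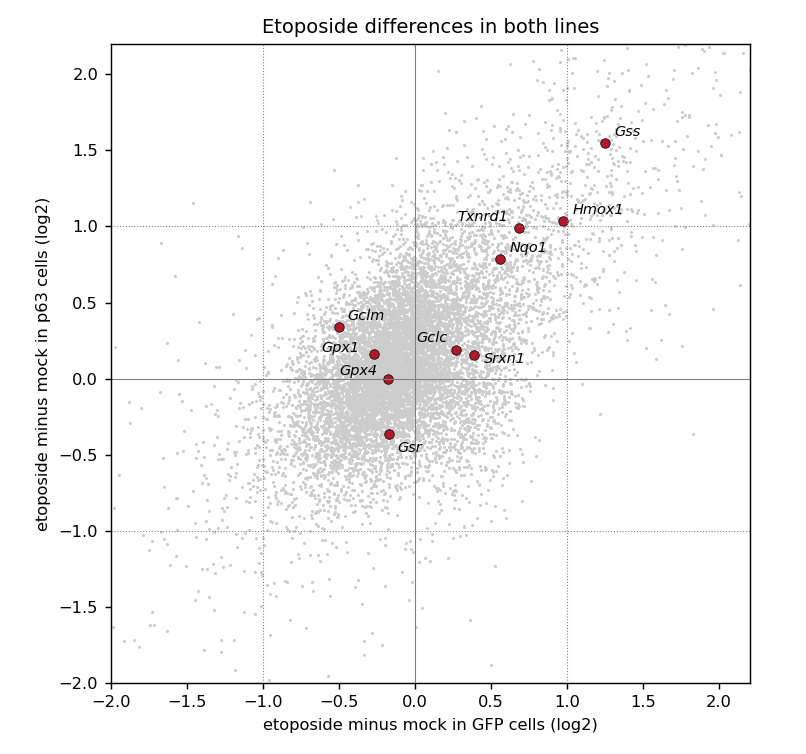
Etoposide minus mock (log2) in GFP cells on the horizontal axis and in p63 cells on the vertical axis; grey points are the genes kept (71 of 10698 lie outside the frame), red points the 10 redox genes, and dotted lines mark differences of 1. Of the red points, Gss alone lies beyond both dotted lines in the upper right corner, with Hmox1 at 0.98 and 1.04, and Txnrd1 and Nqo1 closest to it.

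The promoters of 5 members are shown because their genes cover the span of etoposide differences among the members in GFP cells. They run from Gss, the largest in both lines, through Txnrd1, Nqo1 and Srxn1, to Gclm, with opposite signs. Matches to the letters of the NRF2 motif can be compared between them. In p63 cells Gsr (-0.36) and Gpx4 (-0.0012) lay below these 5. Gsr had no window, and those of Gpx4 and Gpx1 are not printed. RefSeq (GRCm38.p6) windows matched 7 of the 10 members, with 12 windows in all, and the 250 bases before the annotated start are printed. Capitals mark a match, on either strand, to the ARE core TGACNNNGC or to the full NRF2 sites TGACTCAGC and TGAGTCAGC; the second search was chosen after the sequences had been seen.
Gss (chr2:155592811-155593060, minus strand): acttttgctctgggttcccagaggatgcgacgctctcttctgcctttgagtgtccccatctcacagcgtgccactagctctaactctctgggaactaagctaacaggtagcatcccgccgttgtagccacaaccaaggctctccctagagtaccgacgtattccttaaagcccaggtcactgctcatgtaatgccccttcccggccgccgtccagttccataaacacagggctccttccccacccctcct
Txnrd1, second of 3 annotated starts (chr10:82858956-82859205, plus strand): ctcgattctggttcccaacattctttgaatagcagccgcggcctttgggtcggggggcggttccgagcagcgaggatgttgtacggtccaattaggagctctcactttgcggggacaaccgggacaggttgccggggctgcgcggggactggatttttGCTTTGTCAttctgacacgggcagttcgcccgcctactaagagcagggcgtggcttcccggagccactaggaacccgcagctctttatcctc
Nqo1 (chr8:107403206-107403455, minus strand): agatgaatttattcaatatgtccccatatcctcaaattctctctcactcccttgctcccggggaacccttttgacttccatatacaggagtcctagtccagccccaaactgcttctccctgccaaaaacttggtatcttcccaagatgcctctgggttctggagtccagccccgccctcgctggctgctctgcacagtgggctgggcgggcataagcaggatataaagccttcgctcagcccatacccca
Srxn1 (chr2:152105274-152105523, plus strand): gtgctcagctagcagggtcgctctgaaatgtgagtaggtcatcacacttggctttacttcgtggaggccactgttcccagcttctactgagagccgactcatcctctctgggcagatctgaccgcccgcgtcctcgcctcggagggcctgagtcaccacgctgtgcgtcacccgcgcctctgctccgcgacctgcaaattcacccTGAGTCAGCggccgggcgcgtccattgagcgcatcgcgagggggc
Gclm (chr3:122245307-122245556, plus strand): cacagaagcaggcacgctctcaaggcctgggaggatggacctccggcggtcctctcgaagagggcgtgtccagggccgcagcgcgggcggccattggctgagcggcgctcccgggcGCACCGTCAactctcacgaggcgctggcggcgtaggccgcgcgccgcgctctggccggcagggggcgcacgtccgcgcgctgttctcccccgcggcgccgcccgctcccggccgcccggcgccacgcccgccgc

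In these windows an ARE core was found in Txnrd1 and in Gclm, on the opposite strand in each. In Txnrd1 it lies 84 to 92 bases before the second of 3 annotated starts and reads TGACAAAGC on that strand. The windows of the other Txnrd1 starts, which are not printed, held no core. In Gclm it lies 126 to 134 bases before the start and reads TGACGGTGC on that strand. A core occurs in 10.2% of the 32851 windows of this length, and in 2 of the 12 member windows. Srxn1 held the full NRF2 site TGAGTCAGC, 37 to 45 bases before its start, a form found in 0.706% of windows, and this match contains the AP-1 site TGACTCA on the opposite strand. The Gss and Nqo1 windows held neither form. Gss had the largest etoposide differences and Srxn1 small ones (0.15 in p63 cells and 0.38 in GFP cells). Bases outside the windows were not searched, NRF2 binding was not measured, and a relation of matches to these differences was not tested. The p53 half-site consensus occurred in 7.13% of windows and in 0 of the 12 member windows. A match is a description of letters in these windows only.

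The comparison of p63 with GFP asks whether the p63 virus alters these genes at rest or after damage. Of the 10, 0 were called higher or lower with p63 under mock treatment (2.42% and 3.76% of all genes) or etoposide (1.38% and 0.514%), nor under both treatments (0.925% and 0.486%). Gclm came nearest: in mock-treated cells it read 7.84 with p63, against 8.80 with GFP, a difference of -0.96, or 1.95-fold lower. In etoposide-treated cells it read 8.18 with p63, against 8.30 with GFP, a difference of -0.12. Gclm was the only one lower by 1.5-fold in mock-treated cells (16.1% of all genes, with 6.74% higher), and 0 of the 10 passed 1.5-fold in either direction in etoposide-treated cells, where 4.91% of genes were higher and 1.87% lower. Likewise 0 of the 10 passed 1.5-fold in the same direction under both treatments, as 2.77% of genes did upward and 1.23% downward.

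Some members differed between the lines in the same direction under both treatments. Nqo1 stood higher with p63, by 0.42 in etoposide-treated and 0.19 in mock-treated cells. Srxn1 stood lower with p63, at -0.46 in etoposide-treated and -0.23 in mock-treated cells, and its value in etoposide-treated cells ranked 10319th from the top of 10698 genes. Gpx4 was at -0.25 and -0.43, Gsr at -0.29 and -0.10, and Txnrd1 at -0.17 and -0.47, in the same order. The Srxn1 value in mock-treated cells ranged from -0.29 to -0.02 under the other scalings, and was -0.03 after cyclic loess. Its difference there is thus not settled. The signs for Gss, Hmox1 and Gsr in mock-treated cells, and for Gclc, Hmox1 and Gpx1 in etoposide-treated cells, flip under another scaling of the arrays. The median over the 10 was -0.05 in etoposide-treated cells (0.02 for all genes kept) and -0.16 in mock-treated cells (-0.14 for all genes kept).

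**Figure D3:**
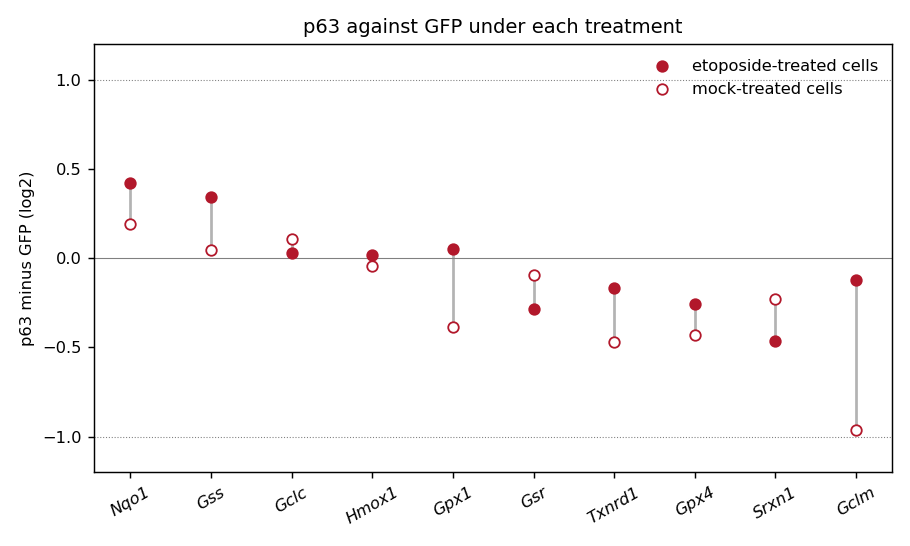
p63 minus GFP (log2, vertical axis) for each redox gene, ordered by its mean, in etoposide-treated cells (filled points) and mock-treated cells (open points), 1 array per group; dotted lines mark differences of 1. Only the mock-treated value of Gclm, -0.96, comes near a dotted line.

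Subtracting the etoposide difference of GFP cells from that of p63 cells gave no value of 1 or more, in either direction, for the 10 genes, while 2.84% of all genes kept passed it upward and 1.09% downward. Gclm had the largest value, 0.84, and was the only member past 1.5-fold (16.7% of all genes upward, 4.94% downward). Gpx1 followed at 0.44, and Srxn1 had the lowest value, -0.23. The median over the 10 was 0.20, as was that of all genes kept. That shift of all genes was 0.01 after cyclic loess. Gss was at 0.30 as deposited and 0.03 after cyclic loess, Txnrd1 at 0.31 and 0.07, and Nqo1 at 0.23 and 0.01. With arrays centred on the genes kept, Gss was at 0.00 and Txnrd1 at 0.01. The signs for Nqo1, Gpx4 (0.18), Hmox1 (0.06) and Gclc (-0.08) flip under another scaling.

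The other genes of the pathway were taken from 8 lists, of which 114 of 121 genes were found and 96 passed the filter. Of these 96, 5 were higher after etoposide in both lines, or 5.21%, against 2.57% of all genes, and 0 were lower in both, against 0.608%. Their median difference was 0.15 in p63 cells and -0.01 in GFP cells, close to the medians of all genes, 0.10 and -0.08. Counted per line, 13 of the 96 were called higher in p63 cells, where 6.28% of all genes were, and 5 in GFP cells, where 3.52% were; these 5 are the ones called in both lines. In either line 0 were called lower. The lists were chosen with earlier results of these data known, so these shares are a description and not a test. The differences in p63 cells, and so the calls in both lines, also rest on the low array of mock-treated p63 cells.

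Among NRF2 and its regulators (11 genes kept), Mafk was called higher in both lines. Mafk, a small MAF protein that pairs with NRF2 on the ARE, read 8.53 after etoposide in p63 cells, against 6.92 with mock treatment, and 8.54 after etoposide in GFP cells, against 7.33 with mock treatment, differences of 1.61 and 1.21. Nfe2l2, which encodes NRF2 itself and was picked out for that reason rather than by the naming rule, read 9.46 after etoposide in p63 cells, against 8.36 with mock treatment, and 9.11 after etoposide in GFP cells, against 8.75 with mock treatment. It was called in p63 cells (1.10) and not in GFP cells (0.35), and these values differ by 0.74. This gap rests on the array of mock-treated p63 cells, where Nfe2l2 had its lowest reading. The median gap of all genes kept was 0.20 as deposited and 0.01 after cyclic loess. The Nfe2l2 values under other scalings are not given, so a difference between the lines is not settled.

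The list of other NRF2 detoxification targets had medians of 0.58 in p63 cells and 0.62 in GFP cells over 12 genes kept. Under the other scalings and filters these ranged from 0.13 to 0.58 in p63 cells and from 0.28 to 0.77 in GFP cells, so their order against the other lists in p63 cells is not settled. Called higher were 5 genes in p63 cells (6.28% of all genes), 3 in GFP cells (3.52%) and 3 in both (2.57%), and 0 were lower. Abhd4, a lipase of N-acyl phospholipids, read 9.59 after etoposide in p63 cells, against 7.41 with mock treatment, and 9.25 after etoposide in GFP cells, against 7.32 with mock treatment, differences of 2.18 and 1.93. Cbr3, a carbonyl reductase, was higher by 1.11 in p63 cells and 1.06 in GFP cells. Osgin1, an oxidative stress-induced growth inhibitor, was higher by 1.05 in p63 cells and 1.09 in GFP cells. Both were dim, with mock readings between 5.84 and 6.06, and setting any reading under 5.87 to that value gave 1.09 and 1.06 for Cbr3 and 1.05 and 1.07 for Osgin1.

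The list of thioredoxins, peroxiredoxins and sestrins (14 kept, medians 0.35 in p63 cells and 0.01 in GFP cells) held Sesn2, a stress-induced sestrin that is also a p53 target, at 1.67 and 1.34. In glutathione supply, transfer and export, 0 of 19 were called after etoposide in either line (medians 0.12 and 0.05), where 6.28% and 3.52% of all genes were higher. In that list Hagh, the glyoxalase II that releases glutathione from lactoylglutathione, was higher with p63 under both treatments, as were 0.925% of all genes kept. It read 10.30 in etoposide-treated p63 cells, against 9.26 in etoposide-treated GFP cells, and 10.15 in mock-treated p63 cells, against 8.67 in mock-treated GFP cells, differences of 1.04 and 1.48.

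The remaining lists had no gene called in both lines after etoposide. Over the other peroxidases, glutaredoxins, superoxide dismutases and catalase (8 kept) the medians were 0.38 in p63 cells and 0.02 in GFP cells, with Glrx5, a mitochondrial glutaredoxin of iron-sulfur assembly, at 0.84 and 0.44 and Glrx3, a glutaredoxin of iron handling, at 1.14 and 0.12. Over NADPH supply (9 kept) they were 0.08 and -0.11, with the NAD kinase Nadk at 0.69 and 0.44 and the transketolase Tkt at 0.49 and 0.18. Over haem, iron and ferritin (10 kept) they were 0.09 and -0.04, with the ferritin heavy chain Fth1 at 1.29 and 0.11 and the biliverdin reductase Blvrb at 0.34 and 0.20. Fth1 read 12.22 after etoposide in p63 cells, against 10.93 with mock treatment, and 12.10 after etoposide in GFP cells, against 11.99 with mock treatment, and the mock-treated p63 array was the low one of the 4. Over selenoprotein synthesis and selenoproteins (13 kept) they were 0.09 and -0.35, with Selenon at 1.06 and 0.10 and Selenoh at -0.22 and -0.67. For scale, 9 p53 targets had medians of 1.99 in p63 cells and 1.53 in GFP cells, and 7 of 9 were called higher in both lines.

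**Figure D4:**
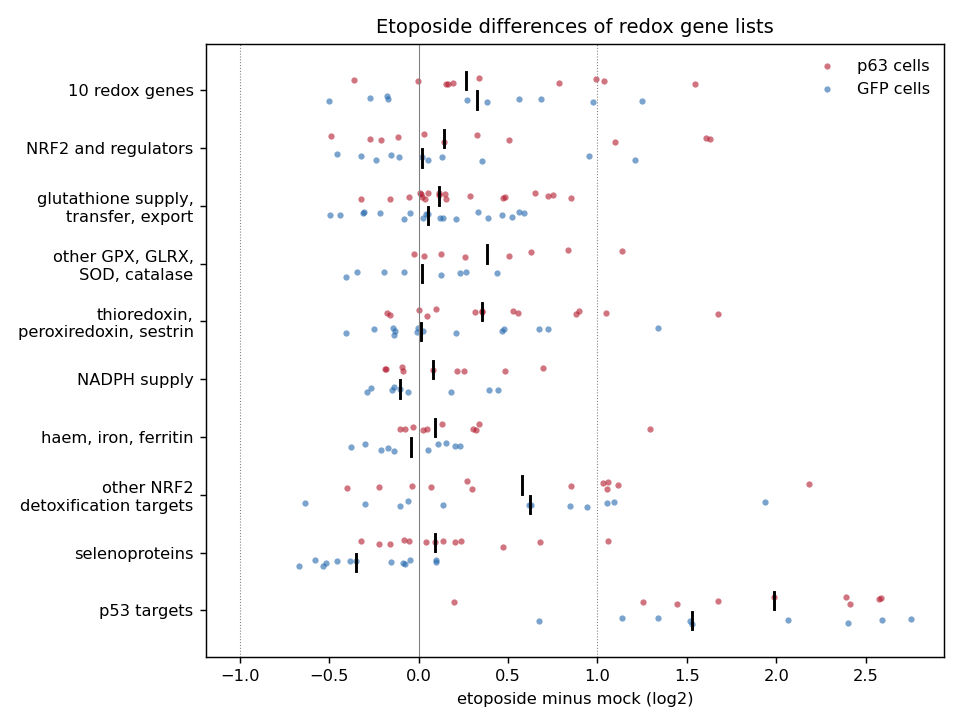
Etoposide minus mock (log2, horizontal axis) for the genes kept of each list, with p63 cells (red) above GFP cells (blue); each point is a gene, black bars are list medians, and dotted lines mark differences of 1. The list of other NRF2 detoxification targets and the p53 targets have medians above 0.5 in both lines, and the other pathway lists lie between -0.35 and 0.38.

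The genes whose readings over the 4 arrays were nearest in shape to the 3 members with the widest range were found by the Euclidean distance of log2 values centred on each gene's mean. For Gss they were Cnbd2 (distance 0.096), Dusp2 (0.10) and Cryab (0.11). For Hmox1 they were Fitm2 (0.042), Sfmbt1 (0.062) and Meak7 (0.069), and for Txnrd1 they were Map2k4 (0.064), Ell (0.066) and 9130401M01Rik (0.086). The nearest member to Gss was Hmox1, at place 169 of 10697 genes and a distance of 0.46. The nearest member to Hmox1 was Txnrd1, at place 299 and a distance of 0.37. Shapes were compared over 4 arrays only.

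Haem oxygenase 1 is also abundant in macrophages, so markers of leukocytes were read beside it. Of 10 such markers, 8 stayed below the filter on 4 of 4 arrays, among them Ptprc, Adgre1, Csf1r and Lyz2, the defining genes, and Cd14 and Cd68 passed it. Cd14 was higher after etoposide by 2.03 in p63 cells and 1.70 in GFP cells, and Cd68 by 1.68 and 0.72. Some mock readings of both lay under the filter, and with these set to 5.87 the differences in p63 and GFP cells were 0.95 and 1.41 for Cd14, and 1.00 and 0.72 for Cd68. The mean of the 10 was 4.62 after etoposide in p63 cells, against 4.32 with mock treatment, and 4.69 after etoposide in GFP cells, against 4.30 with mock treatment. That mean includes Cd14 and Cd68. The differences of the 8 markers below the filter had both signs. They ran from -0.76 (Marco) to 0.36 (Lyz2) in p63 cells, and from -0.01 (Aif1) to 0.54 (Marco) in GFP cells. The part of Cd14-expressing cells in the Hmox1 difference was not tested. In bulk RNA, a change in the number of cells of a type and a change in RNA per cell cannot be told apart.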

How the data were processed

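Total RNA of 4 cultures was extracted with Trizol, amplified and labelled with NuGEN reagents and put on Affymetrix Mouse Gene ST arrays, per the labels' protocols. The deposited values are log2 signals; per the submitters' processing notes, the authors used Affymetrix Expression Console and RMA. No version or genome build is stated in the sources used here. RMA corrects background, equalises probe distributions across arrays and summarises probes, so a shift shared by most genes is largely removed. Values from 1.27 to 14.4 fit a base of 2. Precision is limited by the number of arrays.

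Of 35512 probe sets, a platform annotation of 2016 gave 1 gene symbol for 21789, several for 1621 and none for 12102; 21698 of the 21789 matched a RefSeq table (GRCm38.p6) by Entrez identifier. The brightest probe set stood for a gene (19938 genes), and genes reaching the 50th percentile of the named probe sets (5.87) on any array were kept (10698). Differences of log2 values were taken with Python 3.11.15 and pandas 2.3.3 and other scalings with limma 3.58.1. Groups have 1 array each, so no test of significance was made. Members and lists were chosen with earlier results of these data known. The naming rule took all members, the 3 nearest patterns of 3 members, and Trp63 and Mdm2. From each list it took the genes called in both comparisons of an effect, or otherwise the 2 with the largest mean etoposide difference. The p53 targets are given as counts and medians, and of them only Mdm2 and Sesn2 are named. Marker genes come from fixed lists. Alternatives were other scalings, filters, probe set rules and a 1.5-fold threshold.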

Additional observations from a re-analysis of the deposited data

Results flagged for a closer look

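Gclm and Gpx1 moved in opposite directions after etoposide in the lines, and the difference was not tested. For Gclm the etoposide difference was 0.34 in p63 cells and -0.50 in GFP cells, a gap of 0.840. For Gpx1 it was 0.16 in p63 cells and -0.27 in GFP cells, a gap of 0.435. Opposite signs were seen for 2 of the 10 members and for 37.1% of all genes kept, whose median gap was 0.20. Among the 9 alternatives, only the other scalings could change the values of Gclm. Under these scalings Gclm kept opposite signs, with a gap of 0.55 to 0.93. The filters, the raising of low readings, the probe set rule and the 1.5-fold threshold left its values as they were, so they do not test its signs. For Gpx1 the value in p63 cells was -0.01 after quantile normalization and -0.03 with arrays centred on the median of the genes kept. Both gaps rest on the array of mock-treated p63 cells.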

How the results depend on the processing

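The 9 alternatives were 4 other scalings, no brightness filter, a stricter one at the 75th percentile (7.82), low readings set to the filter value, probe sets of a gene summarised by their median, and a 1.5-fold threshold; centring on the median of the genes kept was chosen after seeing the data. The Gss etoposide difference stayed between 1.35 and 1.55 in p63 cells and between 1.13 and 1.39 in GFP cells. In GFP cells 2 members were called higher after etoposide under cyclic loess, quantile normalization and centring on the genes kept, and in p63 cells 1 was, since Hmox1 then stood at 0.91, 0.88 and 0.84 in p63 cells and 1.12, 1.07 and 1.07 in GFP cells. With a 1.5-fold threshold 4 members were higher in p63 cells, 3 in GFP cells and 3 in both. With arrays centred on their medians over all named probe sets, 1 member, Gclm (-1.03), was lower with p63 in mock-treated cells, as 1 was at 1.5-fold. The cause was not tested. Over 12 counts of called members and these alternatives, 97 values stayed within 1.5 times the main count and 11 did not. This tally is not a measure of stability, since most of the main counts were 0. The filter settings, the raising of low readings and the probe set rule also left every count as it was. All members pass both filters, and only Gpx4 has a second probe set. No paired analysis was possible because each group has 1 array, and no array could be left out of a group. Signals of the members lie well above the filter, so dimness does not limit them; the number of arrays does.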
